A study of Hordeum vulgare with 18 samples.

Results

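The most abundant transcripts that whole barley spikes shared before and after heading were taken as 100 of the 26066 features in a table of normalized read counts. A member had an MLOC identifier, a mean above 10000 normalized counts over 18 libraries, and mean log2(count + 1) values at the 2 stages that differed by less than 1. Of 1026 MLOC features above that level, 730 met the stage limit, and the 100 with the highest means were kept. The members were thus chosen by their measured level and stage difference, so both are described below without a test. A normalized count is a read count divided by the authors' size factor for that library. It was not divided by transcript length, which the sources used here do not give, so the order of members is an order of reads and not of molecules.

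The libraries came from the barley cultivar Golden Promise. The 3 genotypes were grown in the field: a transgenic line labelled KD-CKX1 5.8 (line 5.8), a second one labelled KD-CKX1 17_10 (line 17_10), and an azygous control, a plant without the transgene. HvCKX1, which was silenced in both lines, encodes a cytokinin oxidase/dehydrogenase, an enzyme that breaks down cytokinins. Spikes were taken at stage 49 of the BBCH scale, when the first awns show, and at stage 59, the end of heading, with 3 libraries for each of the 6 groups. The sources used here give neither the silencing construct and its promoter nor the number of plants behind a library. The p-values below measure the spread between these libraries, which may be partly technical.

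In plant organs a small number of genes commonly supplies a large share of the messenger RNA. Transcripts for light harvesting and carbon fixation dominate green tissue, and those for ribosomal proteins, translation factors, histones and the cytoskeleton are plentiful where cells divide. A barley spike around heading holds green glumes, lemmas and awns beside developing flowers. None of the 100 identifiers (0 of 100) matched the reference table of 58438 barley genes, and the table of counts pairs no identifier with a name. Which of these functions the members have is therefore not described, no cell type marker could be looked up, and no sequence is shown.

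Recovered depth ran from 24459652 to 106034579 reads per library. The lowest member in any library rested on 3530 reads and the highest on 1485936. Counting error was thus at most 1.68% of a value (Poisson), and the spread described below is spread between libraries rather than sampling of reads. In line 5.8 at stage 49, replicate 2 stood apart, with the lowest of the 18 values for 46 of the 100 members and the highest for 18. Values without it are given beside many of the results that its omission moved.

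The member with the highest mean was MLOC_64679, at 662895 normalized counts, 3.64 times the mean of the next member. At stage 49 control replicates 1 to 3 held 818774, 484507 and 1193608 counts, line 5.8 held 680628, 400673 and 850652, and line 17_10 held 817556, 701091 and 686375. At stage 59 the control held 568377, 574075 and 434790, line 5.8 held 443118, 579126 and 886344, and line 17_10 held 674988, 678549 and 458878. The genotypes overlapped at each stage, while the libraries of line 17_10 at stage 49 lay above those of the control and of line 17_10 at stage 59. The control at stage 49 spread over the widest range. MLOC_64679 was above the 99 other members in 18 of 18 libraries. Among all features it ranked 3 in line 17_10 at stage 49, replicate 2. It ranked 2 in line 5.8 at stage 59, replicates 1 and 2, and in line 17_10 at stage 59, replicate 3. It took between 0.701% (line 5.8, stage 49, replicate 2) and 2.05% (control, stage 49, replicate 3) of the normalized counts.

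Means above 100000 were found for 10 members, and 42 members had means above 50000. The second, MLOC_75846, averaged 182194 and ranged from 85034 to 228167 (median 182090). MLOC_43331 averaged 161672, with a range from 11766 to 319794 (median 140188). These were followed by MLOC_52040 (mean 146959), MLOC_18233 (127937), MLOC_59370 (122150) and MLOC_44511 (120178). MLOC_71884 averaged 114292, MLOC_12446 113368 and MLOC_7079 106783. For 8 of these 10 members the lowest or highest value of the 18 fell in line 5.8 at stage 49, replicate 2. That replicate was lowest for MLOC_64679, MLOC_75846, MLOC_43331, MLOC_52040, MLOC_18233 and MLOC_59370, and it was highest for MLOC_12446 and MLOC_7079.

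**Figure D1:**
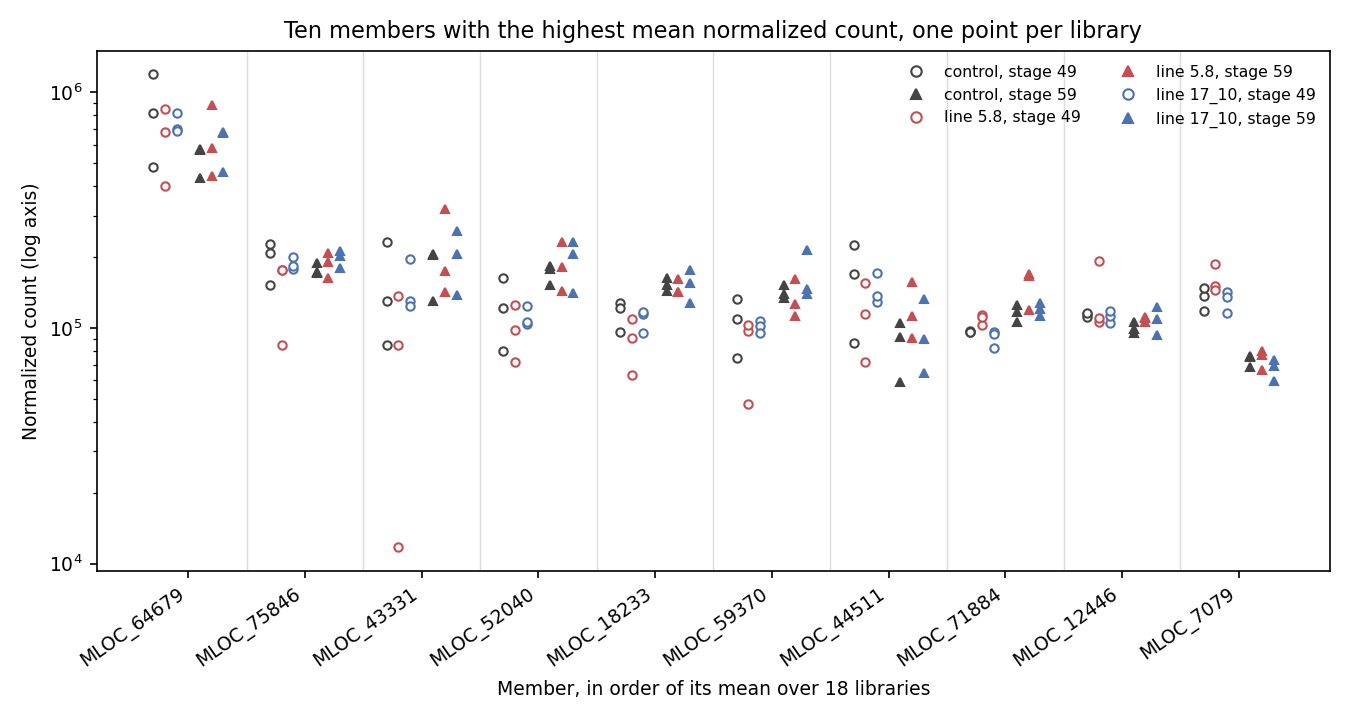
Normalized counts (log axis) of the 10 members with the highest means, 1 point per library, with open circles for stage 49, filled triangles for stage 59, grey for the control, red for line 5.8 and blue for line 17_10. MLOC_64679 lies above the others, and the value of 11766 for MLOC_43331 belongs to line 5.8 at stage 49, replicate 2.

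At the lower end, the last member by rank was MLOC_36945 with a mean of 31868, and the first feature left out was MLOC_56296 with 31669. The member nearest the upper stage limit was MLOC_67009, 1 of the 58 members with a higher value at stage 59, at a log2 stage difference of 0.997. MLOC_7292, at 1.04, lay just beyond. On the other side MLOC_7079 was inside at -0.98 and MLOC_75792 outside at -1.02. As many as 71 MLOC features were as abundant as the members but differed more between stages, 27 with higher values at stage 59 and 44 at stage 49. The members thus cover 100 of the 171 MLOC features at this level.

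Together the members took 8.87 to 13.7% of the normalized counts, although they make up 0.384% of the features. At stage 49 control replicates 1 to 3 gave shares of 11.7, 9.26 and 13.7%, line 5.8 gave 10.1, 8.87 and 11.1%, and line 17_10 gave 11.6, 9.64 and 10.8%. Over the counts of MLOC features alone, line 17_10 at stage 49 gave 11.6, 10.4 and 10.8%. At stage 59 the control gave 12.3, 11.8 and 10.5%, line 5.8 gave 11.5, 11.5 and 13.3%, and line 17_10 gave 12.3, 12.8 and 10.6%. The groups overlapped at each stage, and the control at stage 49 alone covered most of the range. Group means were 11.5 ± 2.21% (control), 10.04 ± 1.12% (line 5.8) and 10.7 ± 0.974% (line 17_10) at stage 49. At stage 59 they were 11.5 ± 0.910%, 12.1 ± 1.03% and 11.9 ± 1.13% (SD, n = 3). The 10 highest members took 2.16 to 4.52% on their own. The next 100 features by the same rule took a narrower 4.04 to 4.82%, with the lowest share in line 17_10 at stage 49, replicate 2. Fewer cells of a type and less RNA per cell cannot be told apart in such whole-organ libraries.

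**Figure D2:**
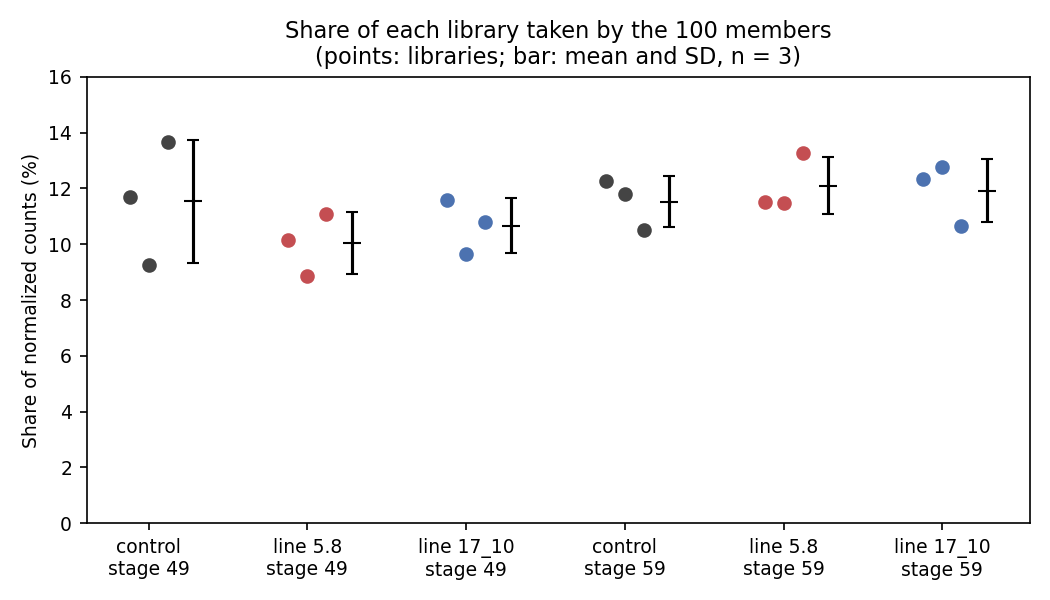
Percent of all normalized counts taken by the 100 members (vertical axis, from 0) in each library, with 3 points per group and the mean with its SD (n = 3) in black. Shares run from 8.87 to 13.7%, and the control at stage 49 is the widest group.

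High mean level did not mean a place near the top of every library. Only 18 of the 100 members were among the 100 most abundant features in all 18 libraries, and 96 were in at least 1. The rule bears on these counts, since the 71 equally abundant MLOC features that it set aside competed for the same 100 places. Between 40 (line 5.8, stage 49, replicate 2) and 60 (control, stage 59, replicate 1) members held such a place in a given library. The counts of 95 members stayed above 10000 in every library, and those of all 100 did so in the 17 libraries other than line 5.8 at stage 49, replicate 2. The lowest place of any member was 4305th, in line 5.8 at stage 49, replicate 2, and 272nd to 715th in the 17 other libraries.

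Stage differences, which the rule bounded over the pooled genotypes, were spread on both sides of 0. Higher values at stage 59 were found for 58 members and lower values for 42, with a median log2 difference of 0.10. The difference was below 0.25 in size for 29 members and above 0.75 for 17. Of the 10 highest by stage 49 mean, 6 were also among the 10 highest by stage 59 mean. MLOC_7079 held place 3 at stage 49 and place 27 at stage 59. Its group means lay between 131201 and 160828 at stage 49 and between 67337 and 74285 at stage 59, and the libraries of the stages did not overlap. MLOC_59370 held place 13 at stage 49 and place 6 at stage 59.

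By genotype, the control had higher values at stage 59 for 44 members, line 5.8 for 64 and line 17_10 for 53, with median log2 stage differences of -0.08, 0.20 and 0.07. Without replicate 2 of stage 49, line 5.8 had higher values at stage 59 for 60 members, with a median of 0.11. A single direction in all 3 genotypes was found for 66 members, 36 higher and 30 lower at stage 59. Within a genotype the stage difference reached 1 or more in size for 7 control members, 14 of line 5.8 and 4 of line 17_10, and for 2 of line 5.8 without that replicate. The extreme was MLOC_43331, with a log2 stage difference of 1.95 in line 5.8 beside 0.37 in the control and 0.40 in line 17_10. Its stage 49 values in line 5.8 were 84547, 11766 and 137230, and without the second the stage difference in line 5.8 was 0.89.

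Members differed widely in how even they were between replicates. The pooled SD of log2 values within groups had a median of 0.32 over the members, from 0.06 to 1.02, and of 0.32 over the 20874 features tested. The next 100 features by the rule had a median of 0.23, and the 71 equally abundant features with larger stage differences one of 0.42. Without replicate 2 of line 5.8 at stage 49 the median was 0.21 for the members, 0.18 for the next 100, 0.32 for the 71 and 0.28 for all tested. The group medians over members ran from 0.13 (line 17_10, stage 49) to 0.40 (line 5.8, stage 49), where it was 0.11 without replicate 2.

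The 5 steadiest members were MLOC_31792, MLOC_11928, MLOC_19772, MLOC_50898 and MLOC_73713, with replicate SDs of 0.06 to 0.12. MLOC_11928 had the narrowest range of all members, from 57638 to 79968 over 18 libraries, a ratio of 1.39. MLOC_31792 ranged from 35094 to 51039, a ratio of 1.45. MLOC_19772 was steady within groups while its stages stood apart, at 33504 to 41920 in the 9 libraries of stage 49 and 56525 to 68227 in the 9 of stage 59. MLOC_50898 lay at 27049, 27664 and 26114 in the control at stage 49 and at 38182, 38743 and 38851 at stage 59, an SD of 359 around a mean of 38592. In all, 18 members varied by less than 2-fold between their lowest and highest library.

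The 5 least even members were MLOC_36945, MLOC_11835, MLOC_43331, MLOC_7045 and MLOC_63282. All 5 had their lowest value in line 5.8 at stage 49, replicate 2. MLOC_36945 stood at 34642, 3119 and 34501 in line 5.8 at stage 49 and at 63077, 14723 and 13372 in the same line at stage 59. Its stage 59 values were 40290, 76126 and 50077 in the control and 26611, 15119 and 33170 in line 17_10, so the control libraries lay above those of line 17_10 and overlapped those of line 5.8. MLOC_11835 stood at 21413, 3903 and 33702 in line 5.8 at stage 49 and at 60370, 19069 and 86090 in the control. For MLOC_7045 the corresponding values were 42028, 6977 and 46604, and 63903, 34368 and 69466. Ranges of 4-fold or more were found for 18 members, up to 27.2-fold in MLOC_43331. Without that library the SDs of these 5 members, which had been 0.58 to 1.02, were 0.36 to 0.66. Ranges of 4-fold or more were then found for 9 members, up to 5.69-fold, and ranges below 2-fold for 32.

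**Figure D3:**
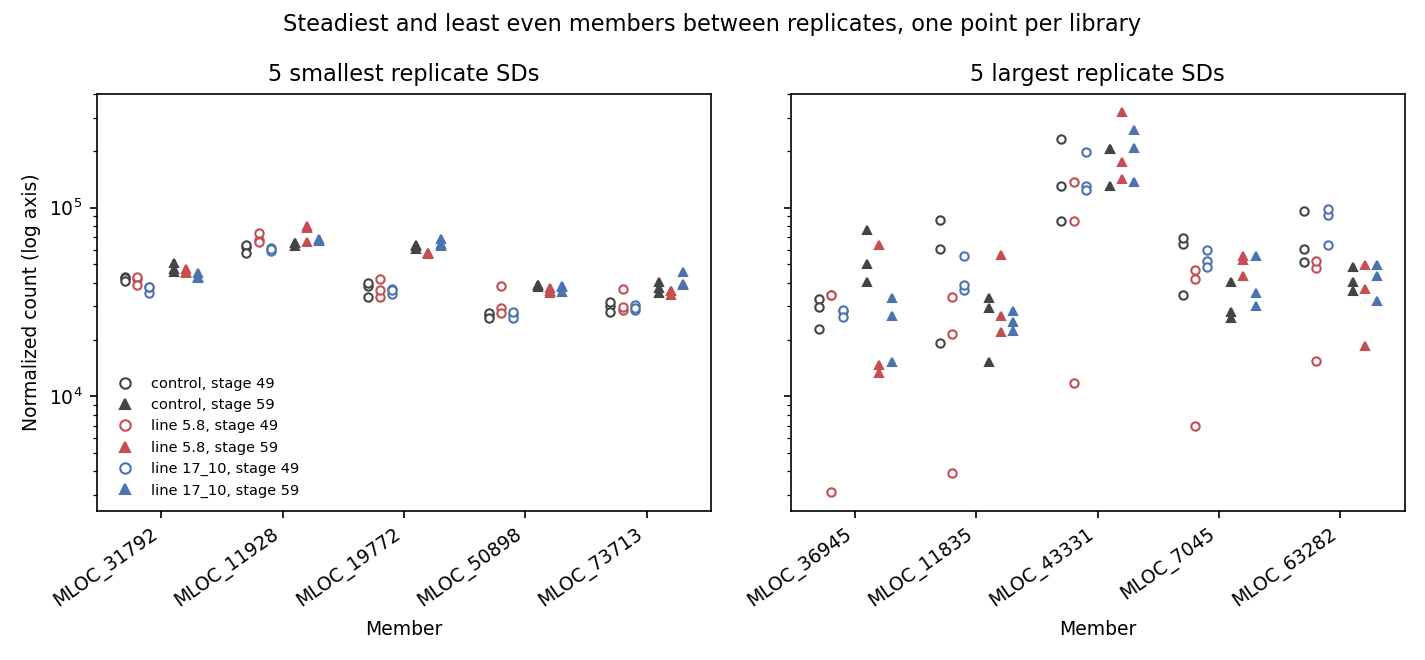
Normalized counts (log axis) of the 5 members with the smallest and the 5 with the largest SD between replicates, 1 point per library, with symbols for genotype and stage as named in the legend. The left panel stays within 26058 to 79968, and in the right panel the lowest point of each member is line 5.8 at stage 49, replicate 2.

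Many uneven members deviated together. In line 5.8 at stage 49, replicate 2, 34 members lay more than 0.5 (log2) below their group mean and 6 more than 0.5 above it, against 21.5% and 14.6% of the 20874 features tested. In the control at stage 49, 35 members lay that far below the group mean in replicate 2 and 23 that far above it in replicate 3. The share of all features that far out was not taken there. Deviations of members had an SD of 0.39 in replicate 2 and 0.32 in replicate 3, beside 0.62 and 0.51 over all features tested. The split by line 5.8 was chosen after the values were seen, and it is used only to describe the other libraries. The 34 low members included MLOC_64679, MLOC_75846, MLOC_43331, MLOC_59370 and MLOC_44511 of the 10 highest. In the control at stage 49, 33 of these 34 lay below the group mean in replicate 2 (median deviation -0.62) and 30 lay above it in replicate 3 (median 0.52). Of the 4485 tested features with the same deviation in line 5.8, 69.6% lay below in that control replicate 2 and 67.2% above in replicate 3. These features cover all levels, and no share was taken at the level of the members. Over all features tested, deviations in the control and line 5.8 at stage 49 correlated at 0.39 in replicate 2 and 0.40 in replicate 3.

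The same 34 members also deviated together in groups that share no library with these. In the control at stage 59, 32 of 34 lay below the mean in replicate 3 (median -0.24), against 70.4% of the 4485 features. In line 17_10 at stage 49, 30 lay above in replicate 1 (median 0.17), against 71.1%, and 32 below in replicate 3 (median -0.11), against 67.7%. In line 17_10 at stage 59, 27 lay below in replicate 3 (median -0.28), against 58.7%. In line 5.8 at stage 59, 25 lay above in replicate 3 (median 0.26), against 51.2%. The 60 members outside both sets had library medians between -0.17 and 0.08. They too leaned to one side in some libraries, with 48 of 60 above the mean in the control at stage 59, replicate 2, and 45 below it in line 5.8 at stage 59, replicate 1. The 6 high members were MLOC_12446, MLOC_67890, MLOC_3679, MLOC_351, MLOC_67266 and MLOC_2917. Their median deviation elsewhere, outside line 5.8 at stage 49, ran from -0.09 to 0.09.

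**Figure D4:**
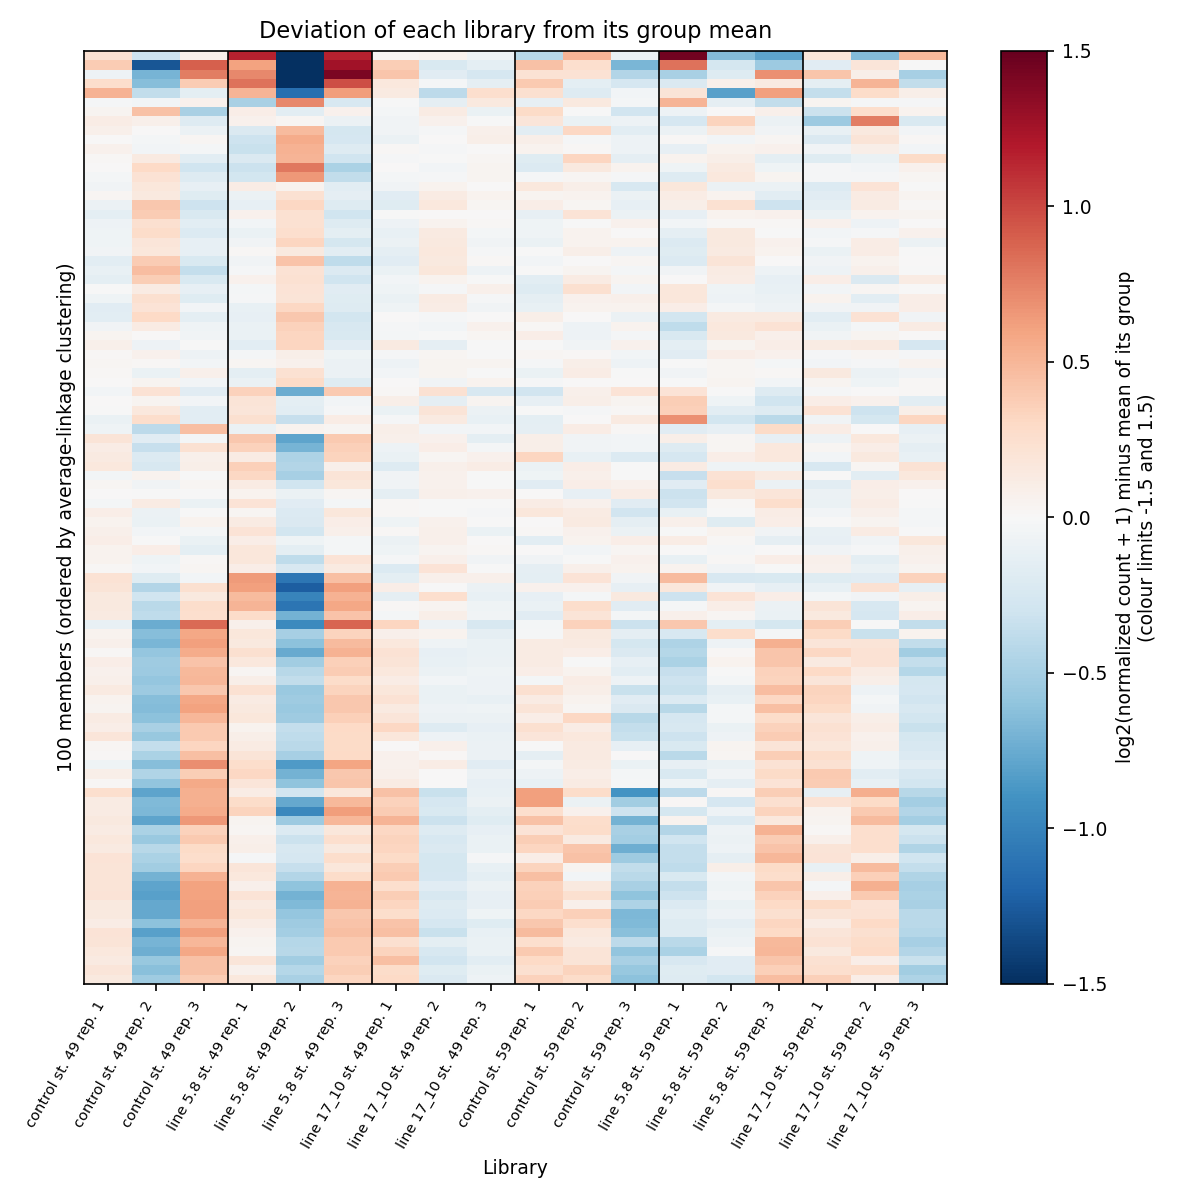
Deviation of each library (columns, 3 per group, groups split by black lines) from the mean of its group for the 100 members (rows, ordered by clustering), in log2 units with blue below and red above. A block of rows in the lower part of the map is blue in control replicate 2 and line 5.8 replicate 2 at stage 49 and red in control replicate 3, and the same rows change colour together in other groups.

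Ratios between members were compared over the 18 libraries. Over all 4950 pairs, the SD of the log2 ratio across the 18 libraries had a median of 0.53, and of 0.46 without line 5.8 at stage 49, replicate 2. The partners named here have the smallest of 99 such SDs. The steadiest pair was MLOC_54528 and MLOC_73050, with an SD of 0.08, the only pair below 0.1. MLOC_54528 ran from 53062 to 109132 and MLOC_73050 from 30073 to 60332, and their normalized counts kept a ratio near 1.83. For MLOC_64679 the steadiest partner was MLOC_70480 (SD 0.12), which ran from 19117 in line 5.8 at stage 49, replicate 2, to 58668 in control replicate 3 of that stage. MLOC_52040 was steadiest with MLOC_71570 (SD 0.12), MLOC_59370 with MLOC_58999 (0.13) and MLOC_7079 with MLOC_73299 (0.14). MLOC_18233 was steadiest with MLOC_74717 (0.17), MLOC_71884 with MLOC_11928 (0.18) and MLOC_12446 with MLOC_59546 (0.18). MLOC_44511 was steadiest with MLOC_66074 (0.20) and MLOC_75846 with MLOC_27455 (0.21). MLOC_43331 had no such close partner, since its steadiest ratio, to MLOC_70816, had an SD of 0.55. These values describe 18 libraries that share groups, and no test was made of them.

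Whether silencing of HvCKX1 went with different levels of these transcripts was asked by comparing genotypes within a stage, which the rule did not use. All 20874 features with at least 10 normalized counts in at least 3 libraries entered a single limma fit with 6 group means, and calls needed a Benjamini-Hochberg adjusted p below 0.05. All 100 members passed this filter, through their level. In each of the 10 comparisons limma called 0 members, and so did edgeR's quasi-likelihood test on the recovered reads. DESeq2 on the same reads called 0 members in 5 of the 10 and 1 to 7 in the others, which are named below. The comparisons of both lines share the control libraries.

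In line 5.8 at stage 49, 0 of 100 members were called, where 0.431% of all features were. An unadjusted p below 0.05 was reached by 15 members, 7 higher and 8 lower, against 14.9% of all features. The smallest p belonged to MLOC_33833, at 37496, 47724 and 36195 in line 5.8 and 28843, 36519 and 26083 in the control, which overlapped (log2 difference 0.41, SE 0.14, limma adjusted p = 0.28). Without replicate 2 of line 5.8 the difference of MLOC_33833 was 0.29 (adjusted p = 0.78), and 1 member had an unadjusted p below 0.05. The share of all features was not taken in that fit, so the fall is not shown to be particular to the members. Fitted differences ran from -1.71 (MLOC_11835) to 0.59, with 63 members below 0 and a median of -0.14 beside -0.0049 for all features. Without replicate 2 of line 5.8 the range was -0.78 (MLOC_11835) to 0.48, and the median was -0.01. Without control replicate 2 it was -0.36, and 2 members were called, MLOC_33833 and MLOC_72618, both higher, against 3.7% of all features. Groups did not overlap for 6 members, 5 higher and 1 lower, against 12.9% of all features. This held for 17 members, 14 higher and 3 lower, against 23.5%, when replicate 2 of line 5.8 was left out.

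In line 5.8 at stage 59, 0 members were called (0.321% of all features), and 16 had an unadjusted p below 0.05, 11 higher and 5 lower, against 16.4%. MLOC_59149 had the smallest p. It stood at 72476, 77068 and 80745 in line 5.8, above all control libraries at 59462, 48310 and 39805 (log2 difference 0.66, SE 0.23, limma adjusted p = 0.20). The median difference was 0.15 over members and 0.01 over all features, and 65 members had fitted differences above 0. Leaving out control replicate 3 gave a median of 0.06 over members, leaving out line 5.8 replicate 1 gave 0.26, and scaling to equal totals gave 0.07. DESeq2 called 1 member, MLOC_67049 (adjusted p = 0.044), and 2.4% of all features. Its values were 68205, 84311 and 99648 in line 5.8 and 65493, 63410 and 54194 in the control. Groups did not overlap for 17 members, 12 higher and 5 lower, against 16.4%.

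The stage 59 count depended on replicate 1 of line 5.8. Without it 7 members were called, 4 higher (MLOC_71884, MLOC_77840, MLOC_49182 and MLOC_67049) and 3 lower (MLOC_69302, MLOC_2917 and MLOC_76802), where 15.6% of all features were called. MLOC_76802 stood at 40416, 20770 and 19035 in line 5.8 and at 36123, 40209 and 43797 in the control, so replicate 1 lay within the control range and the other two below it.

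Over both stages, 0 members were called in line 5.8 (0.858% of all features), and 13 had an unadjusted p below 0.05 against 18.7%. MLOC_77840 had the smallest p (log2 difference 0.45, SE 0.13, limma adjusted p = 0.13). At stage 49 it stood at 99318, 134481 and 89582 in line 5.8, above 73158, 83086 and 72612 in the control. At stage 59 it stood at 95474, 138186 and 144442, against 94318, 88676 and 96973, where replicate 1 lay among the controls. DESeq2 called 7 members, all higher in line 5.8, where it called 4.32% of all features. These were MLOC_71884, MLOC_77840, MLOC_59149, MLOC_49182, MLOC_67049, MLOC_11928 and MLOC_68965, at log2 differences from 0.20 to 0.50. Without control replicate 2 of stage 49 limma called 1 member (MLOC_59149) and 2.39% of all features. Without line 5.8 replicate 1 of stage 59 it called 5 members and 12.8% of all features. Without line 5.8 replicate 2 of stage 49 the difference of MLOC_77840 was 0.36 (limma adjusted p = 0.16). The median over members was then 0.09 in place of 0.0082.

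MLOC_11928, 1 of the steadiest members, was the only one whose line 5.8 libraries lay above the control at both stages, against 2.17% of all features with no overlap in a single direction at both. It stood at 67687, 73267 and 65738 against 61685, 63674 and 57638 at stage 49, and at 66022, 79968 and 77800 against 65380, 64831 and 62522 at stage 59. The log2 difference over both stages was 0.19 (SE 0.08, limma adjusted p = 0.24). Without line 5.8 at stage 49, replicate 2, 4 members lay apart at both stages in a single direction, against 3.69%. MLOC_50898 was the only member whose line 5.8 libraries lay above the control at stage 49 (29325, 38424 and 27772) and below it at stage 59 (36025, 37296 and 35304), against 0.479% of all features that lay apart in opposite directions at the stages. Its interaction of stage and line 5.8 was -0.32 (SE 0.16, limma adjusted p = 0.45), and -0.18 (adjusted p = 0.73) without replicate 2 of stage 49, where 2 members lay apart in opposite directions, against 0.881%.

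In line 17_10 at stage 49, 0 members were called (0.211% of all features), and 0 had an unadjusted p below 0.05 by limma, against 1.6% of all features. Fitted differences ran from -0.31 (MLOC_73052) to 0.31 (MLOC_63282). The smallest p belonged to MLOC_31792 (log2 difference -0.18, SE 0.10, limma adjusted p = 1), whose values are given below. The median was -0.06 beside 0.0022 for all features, and 77 members had lower fitted values. Leaving out control replicate 2 gave a median of -0.17, and leaving out control replicate 3 gave 0.04. For 88 members the 95% interval of the difference lay within a 2-fold change either way, against 64.9% of all features, so for these a larger change is outside the interval. In line 5.8 at stage 49 this held for 63, against 56.3% of all features. Of the next 100 features by the rule it held for 97 in line 17_10 and 82 in line 5.8. The 6 groups share a single estimate of spread, so replicate 2 of line 5.8 enters the intervals of line 17_10 too. Without that replicate 0 members had an unadjusted p below 0.05 in line 17_10 at stage 49, and the intervals were not counted again. Groups did not overlap for 4 members, all lower in line 17_10, against 6.01%.

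At stage 59, 0 members were called in line 17_10 (0.206% of all features). An unadjusted p below 0.05 was reached by 0 members, against 6.39% of all features. MLOC_34485 had the smallest p, at 28423, 19620 and 26011 against 31197, 31123 and 31865 in the control, with no overlap (log2 difference -0.36, SE 0.17, limma adjusted p = 0.78). MLOC_36945 had the largest difference, -1.17 (SE 0.75, limma adjusted p = 0.86), with a 95% interval from -2.78 to 0.43. The interval lay within a 2-fold change for 87 members, against 61.2% of all features and 94 of the next 100 features by the rule. Groups did not overlap for 11 members, 5 higher and 6 lower, against 17.2%.

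Over both stages, 0 members were called in line 17_10 (0.287% of all features), with an unadjusted p below 0.05 for 1 member, against 4.22%. It was MLOC_31792, the steadiest member. At stage 49 it stood at 35094, 38199 and 38209 in line 17_10 and 42728, 42372 and 40853 in the control. At stage 59 it stood at 42494, 43051 and 45188 against 47390, 51039 and 45696. All line 17_10 libraries lay below the control at both stages, and it was the only member of which this was true, against 1.1% of all features in either direction. No member (0) lay apart in opposite directions at the stages, as 0.311% of all features did. The log2 difference was -0.16 (SE 0.07, limma adjusted p = 0.9998), and DESeq2 called it (adjusted p = 0.031, where 0.819% of all features were called). Its line 5.8 libraries overlapped the control at both stages, with a log2 difference of -0.04 over both. Without line 5.8 at stage 49, replicate 2, limma gave 2 members an unadjusted p below 0.05 in line 17_10 over both stages. No share of all features was taken in that fit.

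**Figure D5:**
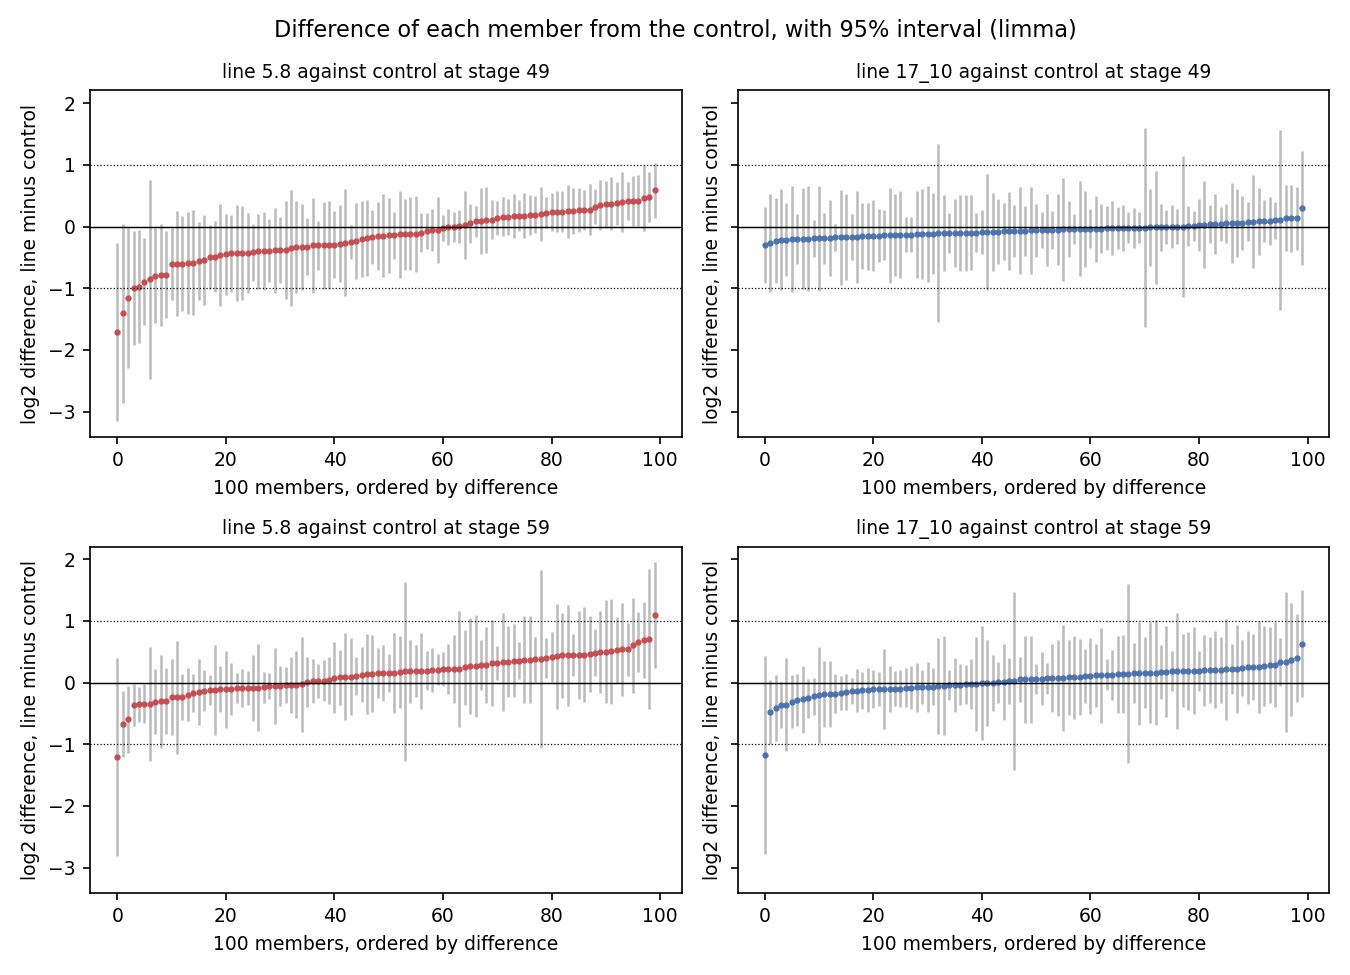
Log2 difference between a line and the control (vertical axis) for each of the 100 members, ordered by size within each panel, with its 95% interval from limma in grey; dotted lines mark a 2-fold change. Line 5.8 (left, red) spans -1.71 to 0.59 at stage 49 and line 17_10 (right, blue) -0.31 to 0.31. Without replicate 2 of line 5.8 at stage 49, which is included here, its span was -0.78 to 0.48.

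The lines were also compared with each other. At stage 49, 0 members were called (0.426% of all features), and 21 had an unadjusted p below 0.05 against 14.7%. MLOC_63282 had the smallest p, at 91280, 63326 and 98941 in line 17_10 and 47965, 15447 and 52017 in line 5.8 (log2 difference 1.30, SE 0.43, limma adjusted p = 0.27). Without replicate 2 of line 5.8 the difference of MLOC_63282 was 0.73 (adjusted p = 0.78), and 2 members had an unadjusted p below 0.05. Here too the share of all features was not taken, so the fall is not shown to be particular to the members. DESeq2 called 1 member, MLOC_77840, lower in line 17_10 (adjusted p = 0.042), and 1.84% of all features. Groups did not overlap for 31 members, 10 higher and 21 lower in line 17_10, against 24.1%. This held for 40, against 36.1%, when replicate 2 of line 5.8 was left out.

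At stage 59, 0 members were called between the lines (0.345% of all features), and 6 had an unadjusted p below 0.05, all lower in line 17_10, against 10.2%. MLOC_78556 stood at 29972, 32516 and 30309 in line 17_10 and at 42791, 46136 and 49850 in line 5.8, with no overlap (log2 difference -0.58, SE 0.14, limma adjusted p = 0.15). DESeq2 called it (adjusted p = 0.0012), with MLOC_67049 and MLOC_59533, all 3 lower in line 17_10, and 1.26% of all features. Without line 5.8 replicate 1 of stage 59 limma called 2 (MLOC_67049 and MLOC_78556) and 6.24% of all features. Without line 5.8 replicate 2 of stage 49 it called 1, MLOC_59533, and 0.481% of all features. In that fit MLOC_78556 had a limma adjusted p of 0.061. There 11 members had an unadjusted p below 0.05, with no share of all features taken. Groups did not overlap for 12 members at stage 59, 3 higher and 9 lower, against 12.0% of all features. They lay apart at both stages in a single direction for 7 members, against 3.29%, and in opposite directions for 0, against 0.469%. MLOC_70866 was higher in line 17_10, and MLOC_59149, MLOC_72488, MLOC_73299, MLOC_68965, MLOC_67266 and MLOC_33833 were lower. Without line 5.8 replicate 2 of stage 49, 9 members lay apart at both stages in a single direction, against 4.86%.

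The interaction of stage and genotype asks whether a line's stage difference departed from the control's. By limma, 0 members were called for line 5.8 and 0 for line 17_10, as were 0 of all features (0.0%). For line 5.8, 9 members had an unadjusted p below 0.05 against 11.3% of all features. MLOC_67009 had the smallest p, with an interaction of -0.51 (SE 0.19, limma adjusted p = 0.44), and its stage difference was 1.18 in the control and 0.66 in line 5.8. Without replicate 2 of line 5.8 at stage 49 the interaction of MLOC_67009 was -0.41 (limma adjusted p = 0.70). In that fit 6 members had an unadjusted p below 0.05, with no share of all features taken. The median interaction over members was 0.33 for line 5.8 beside -0.02 for all features, and it was 0.14 without replicate 2 of line 5.8 at stage 49 and 0.50 without control replicate 2 of that stage. For line 17_10, 0 members had an unadjusted p below 0.05, against 2.53% of all features. The smallest p was that of MLOC_78556, with an interaction of -0.32 (SE 0.20, limma adjusted p = 1).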

How the data were processed

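Each library has 1 column of signal in the deposited table: read counts per gene that the authors divided by DESeq size factors, per the labels. STAR 2.4.2a, Subread 1.5.2 and DESeq2 are named in the submitters' processing notes. No source used here gives the genome build, the strand setting or the handling of multiply aligned reads, so reads of near-identical copies may be split or lost. Dividing by the smallest value of a library gave whole reads back (100% of values within 0.001 reads).

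log2(normalized count + 1), which understates fold changes of low genes, was fitted with limma 3.58.1 in R 4.3.3 (6 group means, trended moderation, two-sided) over 20874 features. SE is the moderated standard error, and ± gives the SD over 3 libraries. edgeR 4.0.16 and DESeq2 1.42.0 ran on the recovered reads. The fit was tested on simulated counts, drawn for each feature independently and with no outlying library. That test therefore does not bear on the shared deviations described above.

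The members and rules were chosen with earlier results of these data known. Named were the 10 highest members, those at the edges of the rule, the 5 with the smallest and 5 with the largest replicate SD, the steadiest ratio partners of the 10 highest, and in each comparison up to 3 called members per direction or, with none, that with the smallest p. Others were named after their values were seen. Same-numbered replicates paired control and line 5.8 at stage 49 alone, where their deviations correlated at 0.15, 0.39 and 0.40. No label says what a number marks. A replicate block left the members called at 0.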

Additional observations from a re-analysis of the deposited data

How the results depend on the processing

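With a pseudocount of 5, no filter on low values, a fit of the compared groups alone, equal totals, TMM scaling, edgeR or a replicate block, 0 members were called in each of the 10 comparisons. Neither scaling moved the median of all features by more than 0.1. Under equal totals the median over members was 0.07 in place of 0.15 for line 5.8 at stage 59, -0.06 in place of -0.13 between the lines at stage 59, and -0.05 in place of 0.0082 for line 5.8 over both stages. DESeq2 called 1 member in line 5.8 at stage 59, 7 in line 5.8 over both stages, 1 in line 17_10 over both stages, 1 between the lines at stage 49 and 3 at stage 59. With array weights, whose estimation stopped before convergence (weights from 0.091 to 30.8), limma called 41 members in line 5.8 at stage 49 (44.8% of all features), 31 at stage 59 (43.1%) and 36 over both stages (47.2%). It called 19 in line 17_10 at stage 49 (19.8%), 2 over both stages (5.25%), 22 between the lines at stage 49 (23.2%), 20 at stage 59 (24.7%) and 34 for the interaction of line 5.8 (38.6%). With 1 library left out in turn, counts ran from 0 to 2 for line 5.8 at stage 49, 0 to 7 at stage 59, 0 to 5 over both stages and 0 to 2 between the lines at stage 59, and stayed at 0 in the 6 other comparisons. Leaving out a library kept 95 to 99 of the 100 members, and a stage limit of 0.5 kept 64. The median replicate SD ran from 0.21 to 0.33 over the same 18 cases. At the recovered depths counting error was at most 1.68% of a member's value.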
